A study of Mus musculus with 28 samples.

Results

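The T-cell receptor beta locus holds the gene segments from which a developing T cell assembles the beta chain of its antigen receptor. Its members were taken as every gene whose symbol starts with Trbv, Trbd, Trbj or Trbc on chromosome 6 between 40891296 and 41558371 (build GRCm38, a span of 667.1 kb), together with the other genes that lie inside this span. This gave 71 genes of the 47042 autosomal genes of the annotation. They were 53 receptor gene segments (35 V, 2 D, 14 J and 2 C, of which 13 V and 1 J are annotated as pseudogenes) and 18 other genes, most of them trypsin genes.

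Exomes of mouse tumours were sequenced to read their DNA copy number. The question given in the series' description is how alterations compare between dimeric and monomeric p53. AD mice carried the p53 AD allele and RP mice the p53 RP allele, each opposite a null allele, so that every animal lacked a wild-type copy of this tumour suppressor. Both genotypes were of mixed background, 50% BALB/C and 50% C57BL6, with no treatment and no age given. A copy number table was used for 24 of the 28 samples: 14 thymic lymphomas, 7 from either genotype, and 10 sarcomas, 5 from either. Each tumour had its own animal number and was collected when the animals reached their end point. The 4 samples of ear, labelled as normal controls, had no table and were not analysed here. Tumours are numbered within each group.

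A T cell joins 1 D to 1 J segment first and then 1 V segment to the joined DJ. Each join on the same strand cuts out the DNA that lay between the segments and leaves the DNA outside them in place. A D-to-J join therefore removes a short stretch next to the J segments, whereas a V-to-DJ join also removes the V segments and trypsin genes that lie between the chosen V and the joined D. Trbv31 lies beyond the C segments in the opposite direction and joins by inversion. The cut is made by the Rag1 and Rag2 proteins and the ends are sealed by non-homologous end joining. Because these joins are made in T cells and not in connective tissue, sarcomas serve here as tumours of another lineage.

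The trypsin genes encode digestive proteases of the pancreas and have no part in the receptor. Those from Try4 to Prss2 are shown here because this stretch was called lost in all 14 thymic lymphomas. The promoters of its first and last gene follow, each as the 250 bases before the annotated start, on the plus strand of GRCm38.p6 from RefSeq, with matches to TATAAA and CACCTG on either strand in capitals. No sequence of a V, D or J segment was used.
Try4, chr6:41302022-41302271: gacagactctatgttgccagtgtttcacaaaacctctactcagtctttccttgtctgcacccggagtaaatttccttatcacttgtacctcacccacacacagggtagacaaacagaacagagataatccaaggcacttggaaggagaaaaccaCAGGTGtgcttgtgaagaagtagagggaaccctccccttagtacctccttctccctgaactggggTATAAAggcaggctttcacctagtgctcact
Prss2, chr6:41521526-41521775: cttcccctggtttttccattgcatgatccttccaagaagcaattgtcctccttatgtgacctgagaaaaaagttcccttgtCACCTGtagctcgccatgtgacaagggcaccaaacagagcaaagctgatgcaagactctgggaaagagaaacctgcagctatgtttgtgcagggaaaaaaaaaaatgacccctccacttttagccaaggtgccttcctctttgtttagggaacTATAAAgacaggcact
TATAAA (or TTTATA) begins 31 bases before the start of Try4 and 16 bases before that of Prss2, and CACCTG (or CAGGTG) 96 and 169 bases before. Both motifs occur in all 6 promoters of this stretch that the sequence table holds. Over all 32851 promoters of the table, cut to the same 250 bases, 12.4% hold TATAAA and 17.2% hold CACCTG. The motifs do not overlap each other, and a match is only a run of letters.

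Copy number is given as the segment mean in log2 (a tumour's signal relative to a comparison DNA) minus the length-weighted median of chromosome 6 in the same tumour. Zero is then the usual level of chromosome 6, and -1 is 50% of it. A segment was called lost at -0.3 or below and deep at -1.5 or below, and a deletion is a run of adjacent lost segments. These are bulk samples, so a loss carried by only some of the cells, or by 1 of 2 chromosomes, cannot be told apart from a complete loss diluted by other cells. The tables held 3727 segments of at least 2 markers, a marker being a captured position, and the read depth is unknown. Chromosome 6 carried 10678 markers in every AD and 10680 to 10681 in every RP thymic lymphoma, and 10683 and 10686 in the AD and RP sarcomas. Marker sets that differ by group cannot be told apart from genotype. At the 23 positions of the locus where a segment began or ended in both AD and RP thymic lymphomas, the running marker number from the start of the chromosome differed by at most 1.

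All 14 thymic lymphomas had a deletion inside the locus, in 7 of 7 AD and 7 of 7 RP tumours. It was found in 0 of 5 AD sarcomas and in 1 of 5 RP sarcomas. Fisher's exact test gave p = 0.00126 for AD and p = 0.0101 for RP thymic lymphomas against sarcomas of the same genotype (two-sided, n = 7 and 5). In all 5 AD sarcomas a single segment spanned the whole locus at the level of chromosome 6. The deletion of RP sarcoma 3 was 1 segment of 15 markers from Trbv14 to Trbv26, 92.2 kb long, at -0.35. That is 78.3% of the chromosome 6 level and just past the cutoff, and this tumour had no deletion at a cutoff of 0.5. At that cutoff AD thymic lymphoma 3, whose run stood at -0.37, also had none, while the other 13 thymic lymphomas kept theirs.

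**Figure D1:**
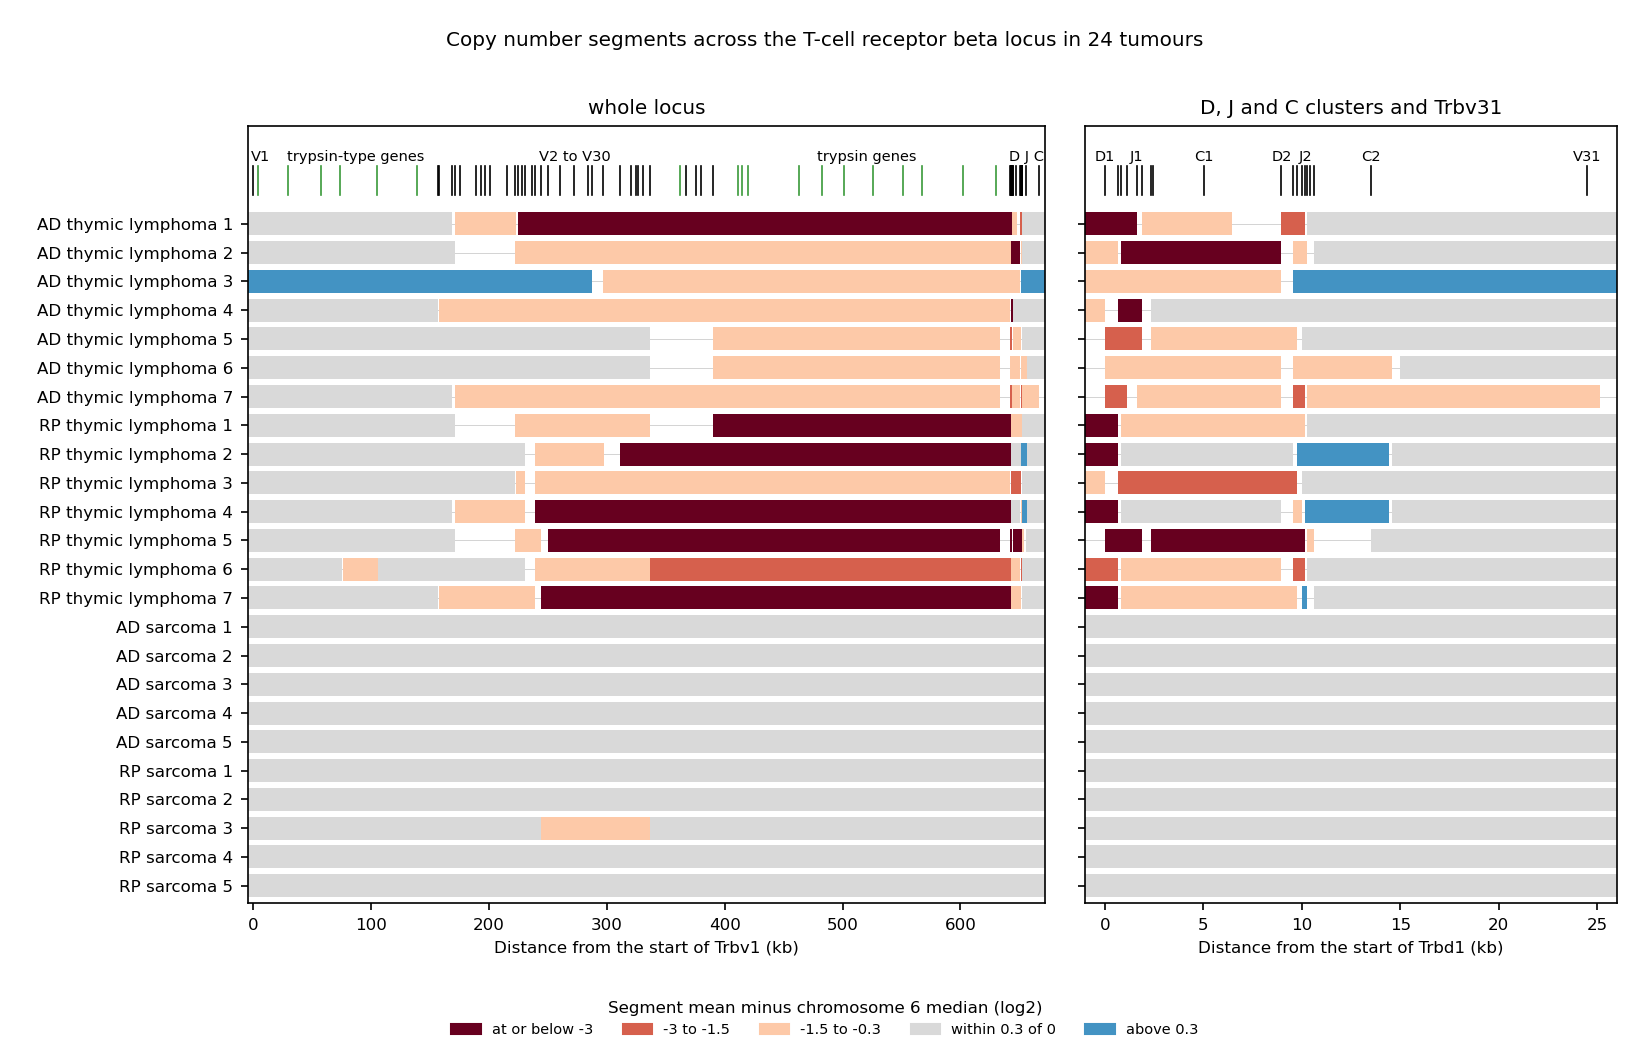
Each row is 1 of the 24 tumours and each bar 1 deposited segment, coloured by its log2 level minus the chromosome 6 median. The left panel runs over the whole locus in kb from Trbv1 and the right panel enlarges the D, J and C clusters in kb from Trbd1; black ticks are receptor segments, green ticks other genes, and gaps between bars hold no marker. The 14 thymic lymphomas have a run of lost segments from the V genes into the J clusters, and the sarcomas apart from RP sarcoma 3 have none.

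The genes at the outer edges of the locus were retained. Trbv1, the most upstream V segment, was called lost in 0 of 14 thymic lymphomas, and so was each of the 6 genes of the upstream trypsin block from Prss58 to 2210010C04Rik. RP thymic lymphoma 6 was the only thymic lymphoma with a short dip in that block, 29.3 kb from 1810009J06Rik into Gm2663 at -0.56, which rests on 4 markers. Trbv31 was called lost in 1 thymic lymphoma, AD 7, whose run reached -0.78 over it. The 5 nearest genes beyond each end of the locus, Clec5a to Moxd2 and Gm27549 to Gm34642, lay within 0.06 of zero in 13 of the 14. The exception was AD thymic lymphoma 3, where they stood at 0.66 to 0.68. In that tumour the deposited chromosome 6 median was -0.37, between the level of the deletion (-0.75) and that of the flanking 1 Mb on both sides (0.30). Its run thus stood at -1.04 relative to the flanks, or at 48.5% of the flanking level.

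The runs began at a V segment and ended in the D, J and C clusters. The last marker retained before the run lay in a V segment in 14 of 14 thymic lymphomas. It was Trbv2 in 2 tumours, Trbv4 in 3, Trbv5 in 3, Trbv12-1 in 1, Trbv13-2 in 2, Trbv19 in 1 and Trbv26 in 2. The first marker retained after the run lay in the J2 cluster in 8, in the J1 cluster in 3 and in Trbc2 in 2, and beyond Trbv31 in AD thymic lymphoma 7. Of the 3 ends in the J1 cluster, those of RP 2 and RP 4 depend on the cutoff. The segments from Trbj1-2 onwards stood there at -0.26 and -0.24, just short of -0.3. In RP 6 the segment from Trbj1-2 to Trbd2 stood at -0.33 and was counted as lost. No marker lies in the 51.1 kb between Trbv5 and Trbv12-1 or in the 53.7 kb between Trbv26 and Trbv30, so a run that starts there may start anywhere inside the gap.

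The total length of the runs overlapped between genotypes. In AD thymic lymphomas the run was 262 kb at the shortest (tumour 5), 430 kb at the median and 496 kb at the longest (tumour 7). In RP thymic lymphomas it was 404 kb (tumour 2), 430 kb and 495 kb (tumour 7). For RP 4 and RP 6 the length sums 2 separate runs, including the upstream trypsin dip of 29.3 kb in RP 6. The means were 396 ± 103 and 443 ± 30.5 kb (SD, n = 7 each), a difference of -46.7 kb that did not pass a two-sided exact permutation test (p = 0.279).

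The level changed in steps at the borders of the runs, within them and beside them, and most steps lay at receptor segments. The thymic lymphomas had 37 downward and 28 upward steps inside the locus, read from left to right. Of the downward steps, 22 lay between V segments, 10 inside the D, J and C clusters and 4 in the 8.33 kb without a marker between Prss2 and Trbd1. The 10 include falls back to 0 from 0.30 in RP 2 and RP 4 and from 0.45 in RP 7. In RP 6, 1 downward and 1 upward step lay in the upstream trypsin block. Of the upward steps, 26 lay inside the D, J and C clusters and 0 between V segments. All tumours together used 46 distinct marker positions as segment ends. All 46 lay in an annotated gene and 41 in a receptor segment. A segment can only end at a captured position.

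AD thymic lymphoma 1 stood apart from the other AD tumours. Its level fell to -0.66 from Trbv5 to Trbv12-1 and to -4.05 from Trbv13-1 to Trbj1-4, which is 6.05% of the chromosome 6 level over 419 kb. It rose to -0.81 from Trbj1-5 to Trbc1, fell again to -2.84 from Trbd2 to Trbj2-4, and returned to 0 at Trbj2-5. It was the 1 AD tumour of 7 with a deep stretch longer than 100 kb.

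In AD thymic lymphoma 3 the run was a single segment of 354 kb from Trbv20 to Trbd2 at -0.37. In AD thymic lymphomas 2, 4, 5, 6 and 7 the trypsin genes were lost at a shallow level and the deepest segment was short. AD thymic lymphoma 2 stood at -0.94 from Trbv12-1 to Trbj1-1 and at -3.62 over 8.16 kb from Trbj1-2 to Trbd2. AD thymic lymphoma 4 stood at -0.53 from Trbv3 to Trbd1 and at -3.30 over 1.22 kb from Trbj1-1 to Trbj1-5. Both deep segments begin at a J1 segment.
AD thymic lymphomas 5, 6 and 7 stepped down between Prss2 and Trbd1. Tumour 5 went from -0.57 to -1.90 over 1.88 kb from Trbd1 to Trbj1-5, and tumour 6 from -0.53 to -1.47 over 8.96 kb from Trbd1 to Trbd2, just above the cutoff of a deep segment. Tumour 7 went from -0.76 to -2.64 over 1.12 kb from Trbd1 to Trbj1-3, with a further dip of -2.50 from Trbj2-1 to Trbj2-4. These short segments rest on 4 to 13 markers each.

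Most RP thymic lymphomas had the reverse profile, with long deep stretches over the V segments and trypsin genes. RP thymic lymphoma 1 stood at -0.68 from Trbv12-1 to Trbv26 and at -3.77 from Trbv30 to Trbj1-1. RP 2 stood at -1.28 from Trbv13-3 to Trbv20 and at -4.16 from Trbv21 to Trbj1-1. RP 4 stood at -0.90 from Trbv5 to Trbv13-2 and at -3.94 from Trbv13-3 to Trbj1-1. These 3 tumours share the shallow then deep order and the point where the deep stretch ends.
RP 6 stood at -0.94 from Trbv13-3 and at -1.92 from Trbv26 to Trbj1-1, and RP 7 at -0.87 from Trbv3 and at -3.73 from Trbv14 to Trbj1-1. In these 5 tumours the deep stretch ended between Trbj1-1 and Trbj1-2, markers that lie 0.137 kb apart. RP 5 stayed deep further on, at -3.42 from Trbv15 to Prss2, -4.42 from Trbd1 to Trbj1-5 and -3.11 from Trbj1-6 to Trbj2-4. RP 3 had no deep trypsin genes: it stood at -1.22 from Trbv13-3 to Trbd1 and at -1.97 over 9.09 kb from Trbj1-1 to Trbj2-2.

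Small rises and second dips lay in the D2, J2 and C2 cluster. RP thymic lymphomas 2, 4 and 7 rose above the chromosome 6 level there, to 0.30 from Trbj2-2 into Trbc2, 0.30 from Trbj2-4 into Trbc2 and 0.45 from Trbj2-3 to Trbj2-5. Those segments rest on 7, 5 and 3 markers. Besides AD 1 and AD 7, a second dip was seen in RP 4 (-0.82, Trbj2-1 to Trbj2-3) and RP 6 (-1.78, Trbj2-1 to Trbj2-4).

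A deep stretch over 100 kb was found in 6 of 7 RP and 1 of 7 AD thymic lymphomas, while a deep segment of any length was found in 7 of 7 and 5 of 7. The deepest segment covered the trypsin genes from Try4 to Prss2 in 5 RP tumours and in AD 1 and AD 3, and lay inside the D, J and C clusters in 5 AD tumours and in RP 3 and RP 5. These counts describe the profiles and were not tested. The level of the deepest segment itself had a mean of -2.48 ± 1.31 in AD and -3.41 ± 1.03 in RP thymic lymphomas (SD, n = 7 each), with overlapping ranges, and the difference of 0.93 did not pass (two-sided exact permutation p = 0.155).

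Summed over the whole span, the locus was lower in RP than in AD thymic lymphomas. The length-weighted level of the locus in AD tumours was -2.64 at the lowest (tumour 1), -0.40 at the median and 0.11 at the highest (tumour 3). In RP tumours it was -2.52 (tumour 4), -2.26 and -0.79 (tumour 3). AD 1 lies below every RP tumour, and the other 6 AD tumours lie above every RP tumour. The value of AD 3 is relative to a chromosome 6 median that lies below its flanks. Against the flanks its locus stood at -0.56. Relative to the chromosome 6 median, the group means were -0.67 ± 0.90 in AD and -1.88 ± 0.69 in RP (SD, n = 7 each). Their difference of 1.21 had an exact permutation p of 0.0186 (two-sided, 3432 splits) and 0.0373 after Benjamini-Hochberg adjustment over 4 comparisons of this value. It did not pass when segments were weighted by markers instead of length (difference 0.98, exact p = 0.06) or without the 2 AD libraries with the most segments, 6 and 7 (1.10, exact p = 0.0556).

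In sarcomas the locus lay near zero in both genotypes. The 5 AD sarcomas lay at 0 and the RP sarcomas between -0.07 and 0, a difference of 0.018 (two-sided exact permutation p = 0.444). The genotype difference in thymic lymphomas exceeded that in sarcomas by 1.19 (two-sided exact permutation within tumour type, p = 0.0217, 864864 splits). Because the sarcomas lie near 0 in both genotypes, this test largely repeats the one within thymic lymphomas, and no alternative of it was run. Against sarcomas of the same genotype, RP thymic lymphomas were lower by -1.86 with no overlap (exact permutation p = 0.00253, adjusted p = 0.0101). AD thymic lymphomas differed from AD sarcomas by -0.67 (exact permutation p = 0.0492, adjusted p = 0.0657), which did not pass after adjustment. The difference was -0.34 without AD thymic lymphoma 1 (exact permutation p = 0.0368, unadjusted). Without AD thymic lymphoma 3 it was -0.80 (exact permutation p = 0.00866, unadjusted). In 7 of the 12 runs that left out 1 tumour, the unadjusted p was no longer under 0.05.

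**Figure D2:**
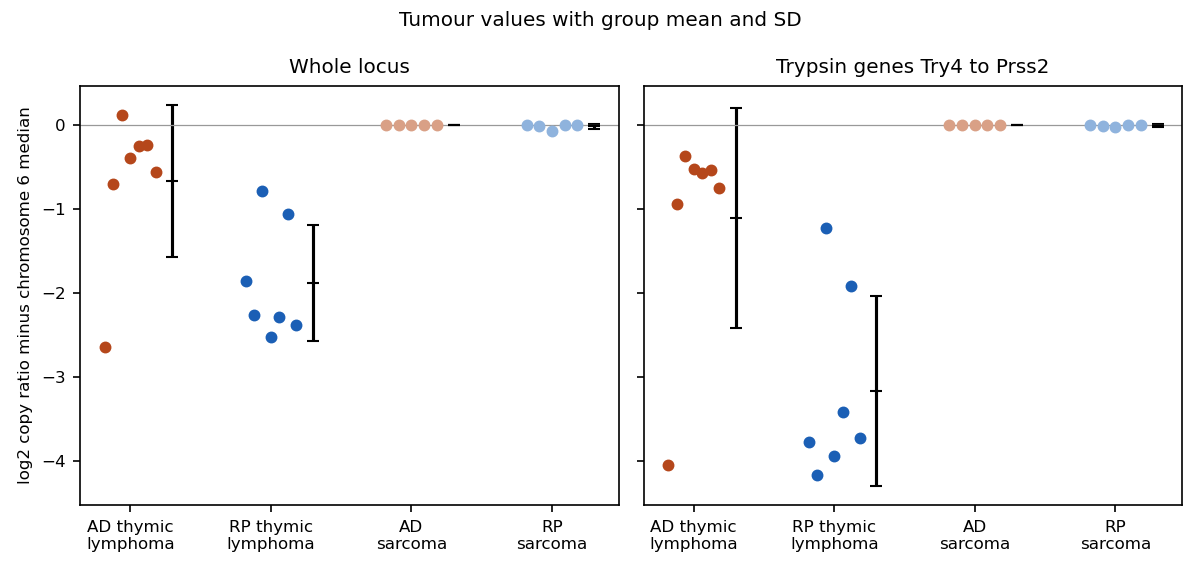
Points are tumours, in log2 minus the chromosome 6 median, for the whole locus (left) and for the stretch from Try4 to Prss2 (right). Black marks give the mean and SD of 7 thymic lymphomas or 5 sarcomas; apart from AD thymic lymphoma 1 at -4.05, the AD thymic lymphomas lie between -0.94 and -0.37 over the trypsin genes, above every RP thymic lymphoma.

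The 11 genes of the downstream trypsin block carried the widest gap between genotypes of the 7 position blocks. They share 1 value in every tumour because the only segment end among them, seen in 4 tumours, lay at the last marker of the block, inside Prss2. In AD thymic lymphomas the block stood at -4.05 in tumour 1 and at -0.94, -0.37, -0.53, -0.57, -0.53 and -0.76 in tumours 2 to 7. In RP thymic lymphomas 1 to 7 it stood at -3.77, -4.16, -1.22, -3.94, -3.42, -1.92 and -3.73. In 4 of these RP tumours and in AD 1, the block kept under 8% of the chromosome 6 level, and RP 5 kept 9.37%. The AD tumours apart from AD 1 kept 52.0% to 77.2%. The highest of these is AD 3, whose run stood at 48.5% of its flanking level. The means were -1.11 ± 1.31 and -3.16 ± 1.13 (SD, n = 7 each), so AD was higher by 2.06. The exact permutation p of Try4, Prss2 and the genes between them was 0.00991, and 0.861 after Benjamini-Hochberg adjustment over all autosomal genes. With 7 tumours a group, these 11 genes alone could not have passed that adjustment at any exact p. Trypsin genes of this array are near copies of each other, and how reads were divided among them is not known, so the value of a single one is less certain than that of the block.

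The V segments from Trbv2 to Trbv30 formed a gradient. Trbv2, the first of the block, was lost in 0 of 14 thymic lymphomas, with means of 0.08 ± 0.26 in AD and -0.02 ± 0.03 in RP. Its AD median was -0.01, with AD 3 at 0.68. Trbv13-3 was lost in 4 of 7 AD and 7 of 7 RP tumours, at -0.80 ± 1.53 and -1.39 ± 1.15. Trbv30, the last, was lost in all 14, at -1.11 ± 1.31 and -3.16 ± 1.13. Over the block as a whole the mean was -0.71 ± 1.12 in AD and -1.81 ± 1.02 in RP (SD, n = 7 each), and it was called deep in 1 AD and 4 RP tumours.

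In the first D, J and C cluster the order of the genotypes turned within a few segments. Trbd1, the first diversity segment, was lost in all 14, at -1.70 ± 1.30 in AD and -3.31 ± 1.23 in RP. Trbj1-1 was lost in all 14, at -2.10 ± 1.31 in AD and -3.41 ± 1.03 in RP, and was the only member that was deep in all 7 RP tumours, beside 0.0659% of all genes. At Trbj1-2, the next joining segment, AD tumours were the lower group.
Trbj1-2 stood at -4.05, -3.62, -0.37, -3.30, -1.90, -1.47 and -2.64 in AD tumours 1 to 7, and at -0.78, -0.26, -1.97, -0.24, -4.42, -0.33 and -0.62 in RP tumours 1 to 7. It was deep in 5 AD and 2 RP tumours, and the groups overlapped. The difference of -1.25 between means of -2.48 ± 1.31 and -1.23 ± 1.53 did not pass (exact permutation p = 0.124, adjusted p = 0.954). Prss2 was higher than Trbj1-2 in 5 AD and 2 RP tumours, equal in 2 AD tumours, and lower in 0 AD and 5 RP tumours.
Trbc1, the first constant gene, was lost in 6 AD and 5 RP tumours, at -1.12 ± 1.19 and -1.05 ± 1.09.

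In the second cluster the losses thinned out from Trbd2 to Trbc2 in AD tumours. In RP tumours they first rose, from 5 at Trbd2 to 6 at Trbj2-1 and Trbj2-2, and then thinned out. Trbd2 was lost in 6 AD and 5 RP thymic lymphomas, at -1.41 ± 1.34 and -1.05 ± 1.09. Trbj2-2 was lost in 5 and 6, at -0.99 ± 1.27 and -1.26 ± 1.12, and Trbj2-1 in as many. Trbj2-3 was lost in 4 and 4, at -0.87 ± 1.32 and -0.82 ± 1.27, and Trbj2-4 in 4 and 3, at -0.87 ± 1.32 and -0.66 ± 1.34. Some tumours of both genotypes lost these segments and others kept them. Trbj2-5 was lost in 3 and 1, at -0.22 ± 0.53 and 0.07 ± 0.33. Trbc2, the second constant gene, was lost in 2 AD tumours and 0 RP tumours, at -0.10 ± 0.45 and 0.06 ± 0.10. Trbv31 averaged -0.03 ± 0.42 in AD and lay at 0 in every RP tumour.

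**Figure D3:**
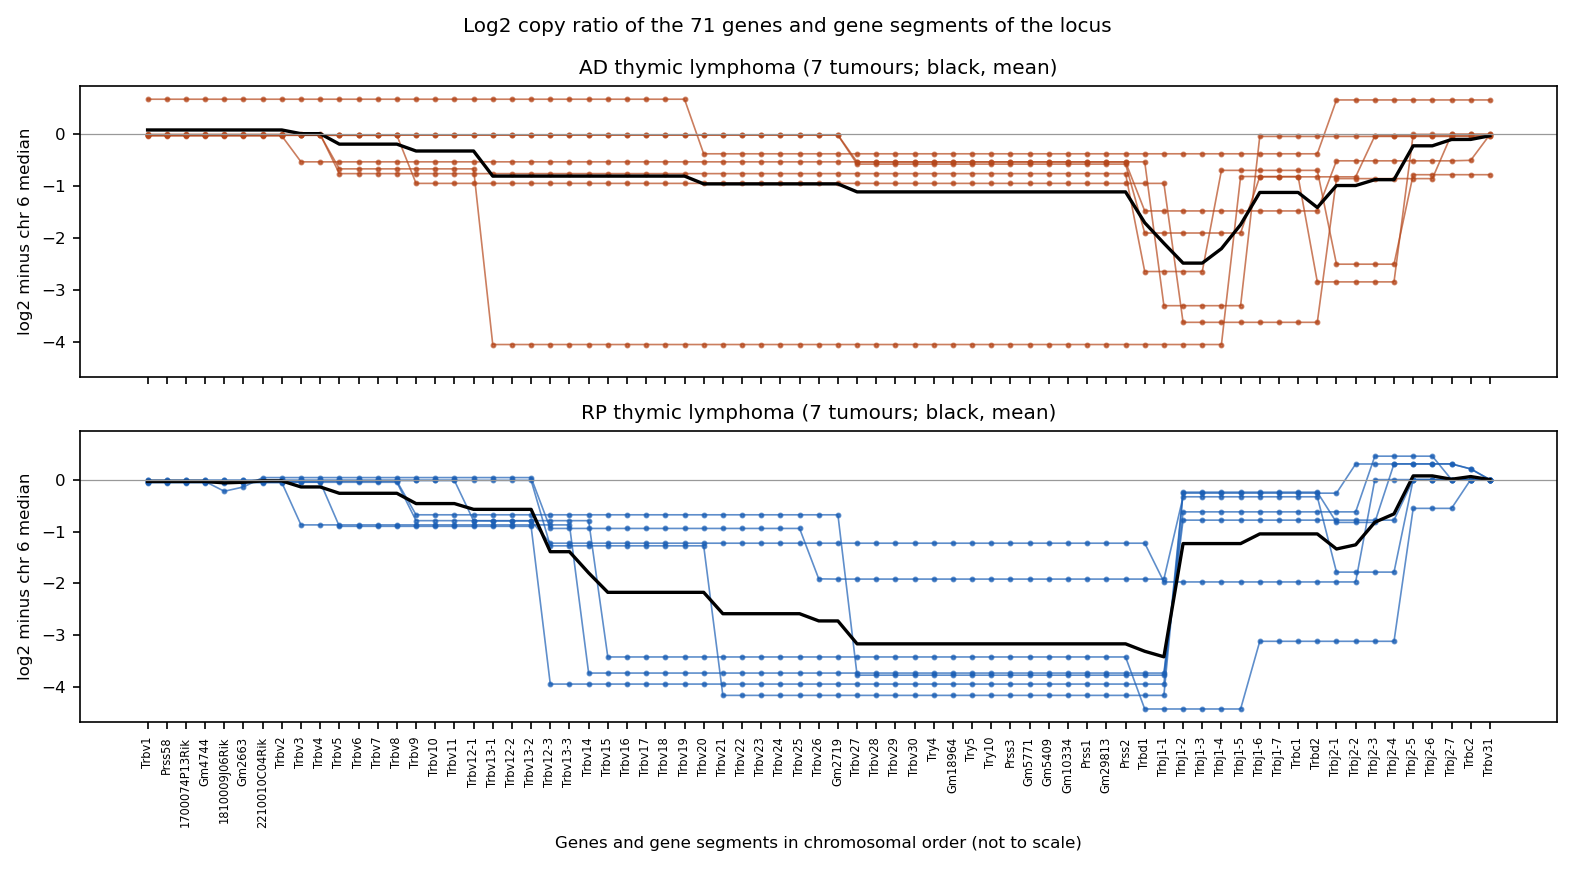
The 71 genes and gene segments are set in chromosomal order on the horizontal axis, not to scale, and the vertical axis gives log2 minus the chromosome 6 median. Thin lines are the 7 AD (top) and 7 RP (bottom) thymic lymphomas and the black line their mean, which reaches its lowest point at Trbj1-2 and Trbj1-3 in AD (-2.48) and at Trbj1-1 in RP (-3.41).

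Tested gene by gene across all autosomal genes, 0 members and 0 other genes passed an adjusted p of 0.05 in any of the 4 comparisons (percent called 0 in each). Between AD and RP thymic lymphomas, 29 of the 71 members had an unadjusted exact p under 0.05, all of them with AD higher, beside 2.34% of all genes in that direction and 3.65% in both directions. They were the 11 downstream trypsin genes, the 10 V segments from Trbv21 to Trbv30, Gm2719 (a pseudogene between them), Trbd1, Trbv1 and 5 upstream trypsin genes. Gm2719, Trbv27, Trbv28 and Trbv29 hold no marker and took the nearest segment in 3 tumours each. Trbv1 and the upstream genes belong to the retained side. Trbv1 averaged 0.08 in AD tumours and -0.04 in RP tumours, as did the flanking genes from Clec5a to Moxd2, and the 5 upstream genes lay between -0.06 and -0.04 in RP. The positive AD mean comes from AD 3 (0.68). The medians of Trbv1 were -0.01 in AD and -0.04 in RP. The median difference was 0.25 over the members and 0.00 over all genes tested.
Against sarcomas of the same genotype, 25 members were lower at the unadjusted threshold in AD thymic lymphomas, beside 2.63% of all genes in that direction and 3.52% in both. In RP thymic lymphomas it was 48, beside 8.35% and 9.24%. In AD sarcomas against RP sarcomas it was 0 members, beside 2.47%. Genes under 1 segment share a value, so these counts are not counts of independent events. With limma in place of the permutation test, 0 members passed in any comparison, and the 18 genes that passed between AD thymic lymphomas and AD sarcomas included 16 of the Tra and Trd locus.

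Loss in every tumour of a group is rare in these genomes. In AD thymic lymphomas 57 genes (0.121%) were at or below -0.3 in all 7 tumours, of which 21 were members. In RP thymic lymphomas 98 genes (0.208%) were, of which 33 were members. The members lost in all 7 AD tumours were the 11 downstream trypsin genes, 4 V segments and 6 segments of the first D, J and C cluster. Those lost in all 7 RP tumours were the same trypsin genes, Gm2719 between V segments, 19 further genes of the V block and 2 segments of the first cluster. Of these V segments, Trbv27, Trbv28 and Trbv29 hold no marker and took the nearest segment in 3 tumours each. In AD 5 and AD 6 the run starts in the gap that holds them, so their loss there was assigned and not measured. Trbv12-3, counted for RP, holds no marker either and took the nearest segment in 4 tumours.

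The other receptor loci put the depth at Trb in context. The T-cell receptor alpha and delta genes (Tra and Trd, 202 genes), which share a locus and are also joined in T cells, held a deep segment in 14 of 14 thymic lymphomas. Their locus means were -1.61 ± 0.96 in AD and -1.59 ± 0.87 in RP (SD, n = 7 each). In the T-cell receptor gamma genes (Trg, 15 genes) a segment was lost in 4 AD and 6 RP tumours, with locus means of 0.08 ± 0.35 and -0.02 ± 0.02. In the immunoglobulin heavy chain genes (Igh, 215 genes), which are completed in B cells, it was 6 and 7 tumours, with means of -0.04 ± 0.13 and -0.03 ± 0.05. Whether the genotype difference at Trb differs from that at Tra and Trd was not tested.

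**Figure D4:**
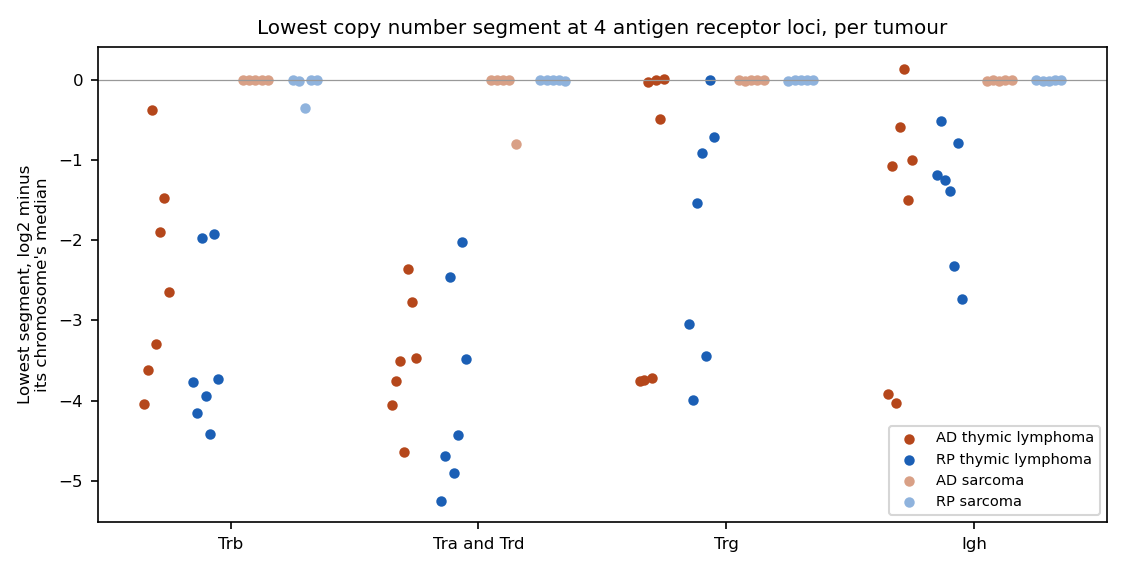
Each point is the lowest segment of 1 tumour at 1 receptor locus, in log2 minus the median of that locus's chromosome. Thymic lymphomas (7 AD, 7 RP) reach below -1.5 at Tra and Trd in all 14 and at Trb in 12 of 14, and sarcomas (5 AD, 5 RP) stay near 0 apart from RP sarcoma 3 at Trb (-0.35) and AD sarcoma 5 at Tra and Trd (-0.80).

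A list of 35 genes of recombination, end joining, receptor signalling and T-cell development was also described, and all 35 were matched. In AD thymic lymphomas 4 of the 35 were lost in at least 1 tumour, beside 8.02% of all genes, and in RP thymic lymphomas 1 of the 35, beside 2.94%. In AD tumours 0 of the 35 were gained in at least 1 tumour, beside 5258 of the 47042 genes, and in RP tumours 1, beside 3108. The list stood near the background in losses. Rag1 and Rag2, the recombinase, and Ptcra, the partner chain of a new beta chain, were altered in 0 of 14 thymic lymphomas at a cutoff of 0.3. Prkdc, a kinase of end joining, was lost in AD 4 (-1.23). Cd3d, a signalling chain of the receptor, was lost in AD 6 (-0.50) and AD 7 (-1.01), the AD libraries with the most segments. In these tumours the neighbouring Cd3g stood at 0.01 and -0.0015, and the neighbouring Cd3e at 0.06 in both.
Lat, an adaptor of receptor signalling, was lost in AD 6 (-0.35), and Notch1, a receptor needed for T-cell commitment, in AD 2 (-0.40). In RP tumours, Ikzf1, a lymphoid transcription factor, was lost in RP 3 (-0.57), and Runx1, another such factor, was gained in the same tumour (0.36). None of the 35 was altered in 3 or more of the 14. At the unadjusted threshold 0 of the 35 differed between AD and RP thymic lymphomas, beside 3.65% of all genes.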

How the data were processed

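The submitters' processing notes name GATK 4.1.0.0, BWA 0.7.17, Trim Galore 0.6.5 and the build GRCm38, without order or role. Per the file headers, each deposited segment has a mean, in log2 (the base is inferred from the values), and a number of markers, another deposited quantity that counts captured positions and not reads. How segments were cut, which DNA served for comparison and whether tumour purity was corrected is not given in the sources used here. The read depth is unknown, so errors come from the spread between tumours alone. Positions were shifted to start at 1, which put all 14 distinct ends in D and J segments on the first base of a segment.

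A gene took the overlap-weighted mean of its segments, or the nearest segment. The nearest segment was used for 34 pairs of gene and tumour in the V block. Two-sided exact permutation tests compared groups (the smallest p is 0.000583 for 7 against 7, 0.00794 for 5 against 5 and 0.00126 for 7 against 5), Benjamini-Hochberg adjusted over the 4 comparisons of the locus value or all autosomal genes, and with Fisher's exact test (Python 3.11.15, numpy 2.4.6, pandas 2.3.3, scipy 1.17.1, matplotlib 3.10.9; R 4.3.3 with limma 3.58.1 as an alternative). The gene test was tested on simulated data. Alternatives were the cutoff, centring, weighting, span, a marker minimum, limma and leaving out tumours. Genes were named by position block, by nearness to a run's ends, or as members of the list. The members and lists were chosen with earlier results of these data known.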

Additional observations from a re-analysis of the deposited data

Results flagged for a closer look

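In 29 sets of values from groups of 5 or 7 tumours, 11 had 1 tumour far from the rest by Dixon's criterion. Its chance rate of about 1 in 20 cannot be applied to the RP sarcomas, where most values are exactly 0. Several of the 11 are the same tumour in overlapping measures. AD thymic lymphoma 1 was the lowest of its group for the whole locus (-2.64), the V block from Trbv2 to Trbv30 (-3.08) and the downstream trypsin genes (-4.05). AD thymic lymphoma 3 was the highest of its group over Trbv1 and the upstream trypsin genes (0.68 in both), where the flanks of the locus lie above its chromosome 6 median by 0.67. RP thymic lymphoma 6 was the lowest over the upstream trypsin genes (-0.13), where it has a dip of 4 markers. RP thymic lymphoma 5 was the lowest in the D2, J2 and C2 cluster (-1.31). RP sarcoma 3 stood apart from the other RP sarcomas for the whole locus (-0.072), the lowest segment (-0.35), the length of the run (92.2 kb) and the V block (-0.15).

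The genotype difference of the locus value, AD minus RP, was larger in thymic lymphomas than in sarcomas, by 1.19 (exact permutation p = 0.0217). With the sarcomas near 0, this largely repeats the difference within thymic lymphomas.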

How the results depend on the processing

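The locus difference between AD and RP thymic lymphomas (1.21) kept its direction under every alternative run. It lost its call with marker weighting (0.98, exact p = 0.06) and without AD thymic lymphomas 6 and 7 together (1.10, exact p = 0.0556), and ran from 1.08 to 1.54 with single tumours left out. AD minus RP sarcomas (0.018) turned to -0.0011 without centring and ran from 0.0039 to 0.022 with single tumours left out. AD thymic lymphomas minus AD sarcomas (-0.67) lost its unadjusted call without segments of fewer than 5 markers (-0.69, exact p = 0.0631). It also lost that call in 7 of 12 runs that left out a tumour (AD thymic lymphoma 2 or 7, or any AD sarcoma). Values in the 12 runs went from -0.80 without AD thymic lymphoma 3 to -0.34 without AD thymic lymphoma 1. Leaving out any AD sarcoma kept the difference at -0.67 and changed only the exact p (0.145). The unadjusted call was kept without centring (-0.88, exact p = 0.00758) and with marker weighting (-0.99, exact p = 0.00758). It was also kept with centring on the autosomal median (-0.80, exact p = 0.0101) and on the flanks (-0.75, exact p = 0.0164). RP thymic lymphomas minus RP sarcomas ran from -2.04 to -1.75 with single tumours left out. That difference was -2.52 over the span from Trbv2 to Trbc2 and -2.14 without centring. Run length (-46.7 kb) ran from -63.2 to -24.2 kb and the deepest segment from 0.58 to 1.19 with single tumours left out. At a cutoff of 0.5 the difference in run length was -95.9 kb (exact p = 0.188), and without centring -37245 kb (exact p = 0.0973), where runs take in long segments of chromosome 6 beyond the locus. Genes past the adjusted threshold rose from 0 to 3893 (AD) and 17985 (RP) for thymic lymphomas against sarcomas without centring, and to 18 with limma (AD). The deposited median of chromosome 6, 1 of the chromosomes so centred, averaged -0.26 and -0.30 in AD and RP thymic lymphomas. Why results changed under an alternative was not tested. Centring on the flanking 1 Mb, chosen after the data were seen, gave a locus difference of 1.11 (exact p = 0.0233). No paired analysis was possible because replicate numbers follow the order of the samples and pair no tumours. Ends are known only to the nearest marker, and short dips rest on few markers.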
